A study of Arabidopsis thaliana with 28 samples.

Results

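Of 33278 nuclear genes of Arabidopsis thaliana, 441 carried the repressive histone mark H3K27me3 over most of their body and were nevertheless expressed in seedlings. These genes were chosen by their measured values: 10 FPKM (fragments counted per kilobase of gene, scaled to the sequencing depth) or more in both genotypes, and 50% or more of the gene body under H3K27me3 peaks in all 4 peak lists. They made up 4.92% of the 8965 nuclear genes with 10 FPKM or more in both genotypes and 8.51% of the 5185 genes with that H3K27me3 coverage. Because FPKM and H3K27me3 selected the genes, their levels of both, and the FPKM difference between the genotypes, are given as a description without a test. The FPKM files hold 1 value per gene and genotype, so FPKM differences are given here without a replicate check.

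The study set the autotetraploid 4XCol-0, a line with 4 chromosome sets made by colchicine treatment of Col-0, against its diploid parent Col-0. Both were of the Columbia ecotype and 10 days old after cold treatment of the seed, grown on MS medium with 16 h of light a day. ChIP-seq gave 2 H3K27me3 and 2 H3K4me3 peak lists per genotype and 1 list for histone H3, and RNA-seq was made from 3 samples per genotype. 4XCol-0 is represented by a single line, so ploidy and any other property of that line cannot be told apart, and nothing in the sources says whether replicates came from separate cultures. The labels call the tissue seedling and the methods describe aerial parts.

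In plants, H3K27me3 is laid down by Polycomb repressive complex 2, often over whole genes and their flanks, and marks developmental and tissue-specific genes that are silent in most cells. H3K4me3 marks the beginning of transcribed genes and is deposited by Trithorax-type methyltransferases. A whole seedling mixes cells in which a Polycomb target is off with cells in which it is on, so both marks and a transcript can be recorded for 1 gene without meeting in the same cell. In such bulk samples, fewer cells of a type and less RNA per cell cannot be told apart.

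Tissue markers were read first. The leaf gene RBCS1A, a small subunit of Rubisco, had 8695 FPKM in 4XCol-0 and 9250 FPKM in Col-0, and the floral marker AP3 had 0.103 FPKM in 4XCol-0 and 0.186 FPKM in Col-0. Root genes were present as well: CASP1, which builds the Casparian strip of the root endodermis, had 61.8 FPKM in 4XCol-0 and 76.6 FPKM in Col-0. CAB1, a leaf light-harvesting gene, was listed at 0, so a listed 0 is not taken as absence of transcript. No gene of the lists for Polycomb repressive complex 2 (11 genes), Polycomb repressive complex 1 and readers (10), H3K27 demethylases (5) or the Trithorax group (10) was among the 441. Of these lists only 2, 1, 0 and 0 genes reached 10 FPKM in both genotypes. In the same order, 2, 1, 0 and 1 genes had the H3K27me3 coverage. The FPKM minimum and the coverage minimum would thus each have kept most of them out alone. Of 28 textbook Polycomb targets, 22 had the H3K27me3 coverage and only SEP3, a floral MADS-box factor, also reached 10 FPKM.

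At the FPKM threshold, the genes just inside were ENDO5, AT1G23410 and MC9, whose lower value was 10.08, 10.15 and 10.16 FPKM. Just outside were AT4G06744, OCT3 and AT3G21351, at 9.87, 9.81 and 9.80 FPKM. At the coverage threshold, AT5G14690, AT2G48130 and AT1G52190 had 50.3, 50.6 and 50.9% of the body under peaks in their lowest list. TI2, CAX3 and LTP6 fell outside with 49.7, 49.7 and 49.2%. No gap in the values separated the genes inside from those outside.

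Sequence motifs were counted upstream of these genes, and 5 windows are shown here as examples of the RY element and the telobox. They are the 250 bases before the annotated start, read from RefSeq TAIR10.1 on the strand of the gene and written 5′ to 3′. The first 3 belong to abundantly expressed genes and hold the RY element, spelled CATGCA and searched on both strands, in capitals. PRP4, a proline-rich cell wall protein, lies at chr4:18098566-18098815 (minus strand), where the element reads TGCATG. GRP9, a glycine-rich protein, lies at chr2:1992832-1993081 (plus strand), and AT4G29020, another glycine-rich protein, at chr4:14304671-14304920 (plus strand). The last 2 belong to the myrosinases TGG1, at chr5:9082385-9082634 (minus strand), and TGG2, at chr5:9072477-9072726 (plus strand). They hold the telobox AAACCCTA in capitals, a motif known from Polycomb recruitment.
PRP4: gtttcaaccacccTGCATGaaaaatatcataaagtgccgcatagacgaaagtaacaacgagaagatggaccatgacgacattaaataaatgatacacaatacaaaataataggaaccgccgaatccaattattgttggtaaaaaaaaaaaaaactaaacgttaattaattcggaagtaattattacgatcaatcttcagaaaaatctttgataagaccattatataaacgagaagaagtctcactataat
GRP9: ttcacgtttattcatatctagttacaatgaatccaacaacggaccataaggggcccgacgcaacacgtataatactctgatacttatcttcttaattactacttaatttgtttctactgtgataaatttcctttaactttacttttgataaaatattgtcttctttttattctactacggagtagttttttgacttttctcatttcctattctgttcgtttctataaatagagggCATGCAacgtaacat
AT4G29020: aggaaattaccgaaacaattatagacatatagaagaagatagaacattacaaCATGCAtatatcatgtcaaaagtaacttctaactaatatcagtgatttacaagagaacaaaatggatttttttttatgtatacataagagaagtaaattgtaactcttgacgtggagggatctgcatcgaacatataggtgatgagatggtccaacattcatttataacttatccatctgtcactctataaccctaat
TGG1: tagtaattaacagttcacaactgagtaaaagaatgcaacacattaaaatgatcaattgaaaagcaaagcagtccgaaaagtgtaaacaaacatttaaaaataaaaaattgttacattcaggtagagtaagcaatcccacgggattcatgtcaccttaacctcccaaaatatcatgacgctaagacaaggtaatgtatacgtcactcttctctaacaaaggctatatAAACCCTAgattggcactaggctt
TGG2: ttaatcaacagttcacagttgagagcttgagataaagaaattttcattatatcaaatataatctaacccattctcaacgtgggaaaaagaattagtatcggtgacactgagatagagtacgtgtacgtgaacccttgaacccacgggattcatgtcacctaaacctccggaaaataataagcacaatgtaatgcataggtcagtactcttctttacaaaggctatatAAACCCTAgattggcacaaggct

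The RY element, the binding sequence of B3-domain regulators of the seed programme, was present in the 250-base window of 73 of the 441 genes, 16.6%. It was present in 5.56% of expressed genes without any H3K27me3 peak, in 12.9% of covered genes under 1 FPKM and in 8.25% of all nuclear genes. The share was 17.1% in the 117 genes that also carried H3K4me3 and 16.3% in the 251 without an H3K4me3 peak. In GRP9 the element began 15 bases before the start and in PRP4 237 bases before it. A match is a description of letters, not of a bound site.

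The telobox was present in 5.67% of the windows, against 5.22% in expressed genes without H3K27me3 and 10.4% in covered genes under 1 FPKM, with 6.25% over all genes. In TGG1 and TGG2, which lie close together on opposite strands, it began 24 and 23 bases before the start. The GA repeat GAGAGAGA was found in 5.67% of the windows, against 7.31% in expressed genes without H3K27me3 and 7.77% of all genes. The motif of the H3K27 demethylase REF6, spelled CTCTGCTC, CTCTGCTT, CTCTGTTC or CTCTGTTT, was found in 4.08%, against 5.82% and 7.17% in the same sets. The G-box CACGTG, bound by light-signalling bHLH and bZIP factors, was found in 5.67%, against 11.3% and 6.74%. All motifs were searched on both strands, and GC content of the windows had a median of 30.8% in the 441 genes, against 33.2% in expressed genes without H3K27me3. In covered genes under 1 FPKM the GA repeat was found in 8.51%, the REF6 motif in 5.89% and the G-box in 4.17%. Their median GC content was 31.6%.

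The 441 genes were short. Their median length was 1466 bases, against 2066 bases for the 8045 expressed genes without an H3K27me3 peak in any list and 1324 bases for the 3665 covered genes under 1 FPKM. A single exon was annotated for 24.7% of them, against 11.2% of the expressed genes without H3K27me3 and 35.0% of the covered genes under 1 FPKM. RefSeq annotates 440 of them as protein-coding and AT1G70885 as a transcribed pseudogene. The 5 chromosomes held 111, 70, 81, 88 and 91 of them. Another gene overlapped the body of 14, or 3.17%, against 16.9% of all expressed genes.

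Coverage by H3K27me3 was mostly complete. The median gene had 100% and 99.02% of its body under peaks in the 2 lists of 4XCol-0 and 96.9% and 94.7% in the 2 lists of Col-0. The peaks over these genes had median lengths of 2580 and 2428 bases in 4XCol-0 and of 2299 and 2230 bases in Col-0, against 3658 and 3390 bases in 4XCol-0 and 3177 and 3000 bases in Col-0 over covered genes under 1 FPKM. They were therefore shorter domains than those over silent genes in every list, and between 61.0% and 63.9% of the 441 genes lay in a domain that covered 50% or more of no other gene. Even so, 274 genes (62.1%) had a covered gene as their next neighbour. Of the 441, 82 genes (18.6%) stood next to another of the list, in 39 runs of at most 3 genes, and 2.21% of expressed genes without H3K27me3 stood next to one.

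Some of these genes were among the abundant transcripts of the seedling, although the typical level was moderate. The median was 28.4 FPKM in 4XCol-0 and 29.9 FPKM in Col-0, close to the 31.1 FPKM in 4XCol-0 and 29.2 FPKM in Col-0 of the expressed genes without H3K27me3. MLP34, a major latex-like protein of unknown ligand, had 1618 FPKM in 4XCol-0 and 1969 FPKM in Col-0. DR4, a protease inhibitor-like protein repressed by drought, had 1206 FPKM in 4XCol-0 and 1531 FPKM in Col-0. TGG1, the myrosinase that hydrolyses glucosinolates when tissue is wounded, had 1553 FPKM in 4XCol-0 and 1136 FPKM in Col-0. All 3 had H3K27me3 over 100% of the body in every list and no H3K4me3 peak in any.

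The other leading genes followed. AT1G23130, of the polyketide cyclase-like family, had 1331 FPKM in 4XCol-0 and 1226 FPKM in Col-0. PRP4 had 900.3 FPKM in 4XCol-0 and 1256 FPKM in Col-0, and was the only 1 of the 10 most abundant genes with H3K4me3, over 65.5% of its body on average. MLP328 and MLP28, again major latex-like proteins, had 1012 and 773 FPKM in 4XCol-0 and 1130 and 953 FPKM in Col-0. PBP1, a jacalin-type lectin that binds the beta-glucosidase PYK10, had 923 FPKM in 4XCol-0 and 1136 FPKM in Col-0. GRP9 had 591 FPKM in 4XCol-0 and 760.2 FPKM in Col-0. AT1G67865, an uncharacterised short protein, had 585 FPKM in 4XCol-0 and 516 FPKM in Col-0. Of these 10 genes, 4 belonged to the major latex and polyketide cyclase-like group.

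**Figure D1:**
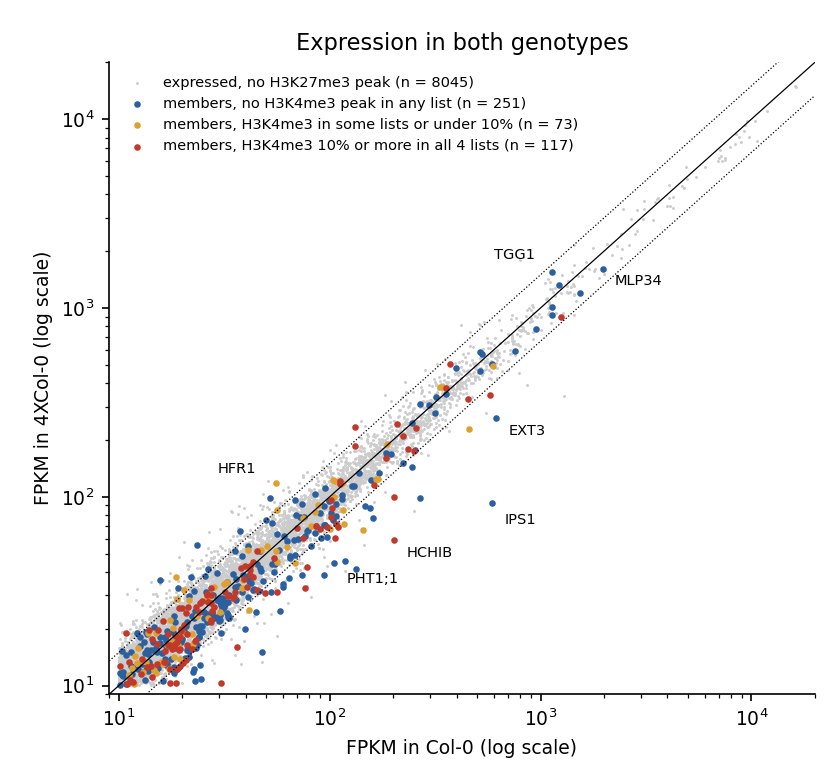
FPKM in 4XCol-0 (vertical axis) against FPKM in Col-0 (horizontal axis), both on log scales, for the 441 expressed genes covered by H3K27me3, labelled members, with point colour giving the H3K4me3 class, grey points for expressed genes without H3K27me3, a diagonal at equal values and dotted lines at 1.5-fold. IPS1, at 92.9 FPKM in 4XCol-0 and 590 FPKM in Col-0, lies farthest below the diagonal.

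H3K4me3, which was not used to choose the genes, was scarce on them. An H3K4me3 peak over 10% or more of the body was present in 138 and 159 of the 441 genes in the 2 lists of 4XCol-0 (31.3% and 36.1%) and in 155 and 127 in the 2 lists of Col-0 (35.1% and 28.8%). The same was true of 88.0% and 90.0% of expressed genes without H3K27me3 in 4XCol-0 and of 85.1% and 81.8% in Col-0. Among covered genes under 1 FPKM it was 8.05% and 10.8% in 4XCol-0 and 9.55% and 6.85% in Col-0. The expressed covered genes therefore stood between the other sets in each of the 4 lists, with no overlap of the shares between sets. The genotypes overlapped in the 441 genes and in the covered genes under 1 FPKM. In expressed genes without H3K27me3, both lists of 4XCol-0 lay above both lists of Col-0. The median gene of the 441 had no H3K4me3 at all.

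Across the 4 lists the genes fell into 3 classes. H3K4me3 covered 10% or more of the body in every list in 117 genes (26.5%), no list held a peak in 251 genes (56.9%), and 73 genes lay between. Of expressed genes without H3K27me3, 80.1% were of the first class and 5.59% of the second. Of covered genes under 1 FPKM, 6.03% were of the first class and 86.2% of the second.

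**Figure D2:**
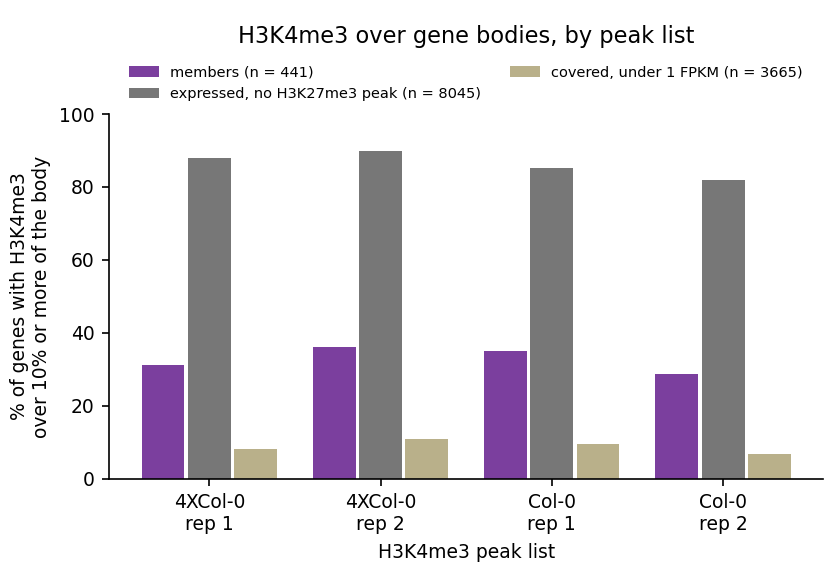
Percent of genes with an H3K4me3 peak over 10% or more of the body, in each of the 2 lists of 4XCol-0 and the 2 lists of Col-0, for the 441 expressed covered genes, the expressed genes without H3K27me3 and the covered genes under 1 FPKM. The 441 genes lie between 28.8% and 36.1%, apart from both other sets in every list.

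The share with H3K4me3 did not follow the expression level. It was 28.1% of the genes with a mean of 10 to 20 FPKM, 26.7% from 20 to 40, 24.5% from 40 to 100 and 25.7% above 100. In expressed genes without H3K27me3 it was 72.3, 80.01, 85.3 and 87.7% in the same classes. Gene length moved it little: 29.9% of genes under 1000 bases, 25.7% from 1000 to 2000 and 24.2% above 2000 were in the first class, against 71.9, 84.9 and 78.3% of expressed genes without H3K27me3.

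Of the bases of the 441 genes under H3K4me3 in both lists of a genotype, 86.8% in 4XCol-0 and 89.5% in Col-0 were also under H3K27me3 in both lists. Over all bases of these genes the H3K27me3 share was 86.9% in 4XCol-0 and 84.7% in Col-0, a level that the choice of genes sets, so the bases with H3K4me3 carried H3K27me3 about as often as the rest of the body. In the 117 genes of the first class, H3K4me3 covered 59.8% and 68.1% of the bases near the beginning of the body in 4XCol-0 and 63.3% and 60.0% in Col-0. H3K4me3 was highest a little farther in, at 67.9% and 77.3% in 4XCol-0 and 71.2% and 62.5% in Col-0. At the middle of the body it still covered 57.0% and 62.8% in 4XCol-0 and 59.6% and 48.2% in Col-0. In the 6445 expressed genes that met the same H3K4me3 rule without H3K27me3, the values were 93.3% and 94.7% in 4XCol-0 and 92.2% and 89.0% in Col-0 near the beginning, and 26.1% and 29.0% in 4XCol-0 and 27.3% and 23.4% in Col-0 at the middle. The profile was flatter in the covered genes, which are also shorter. Counted in bases, the median H3K4me3 length in genes under 1000 bases was 429 bases in the covered genes and 579 bases in the others. In genes of 1000 to 2000 bases it was 638 and 633 bases, and in longer genes 628.5 and 695 bases.

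**Figure D3:**
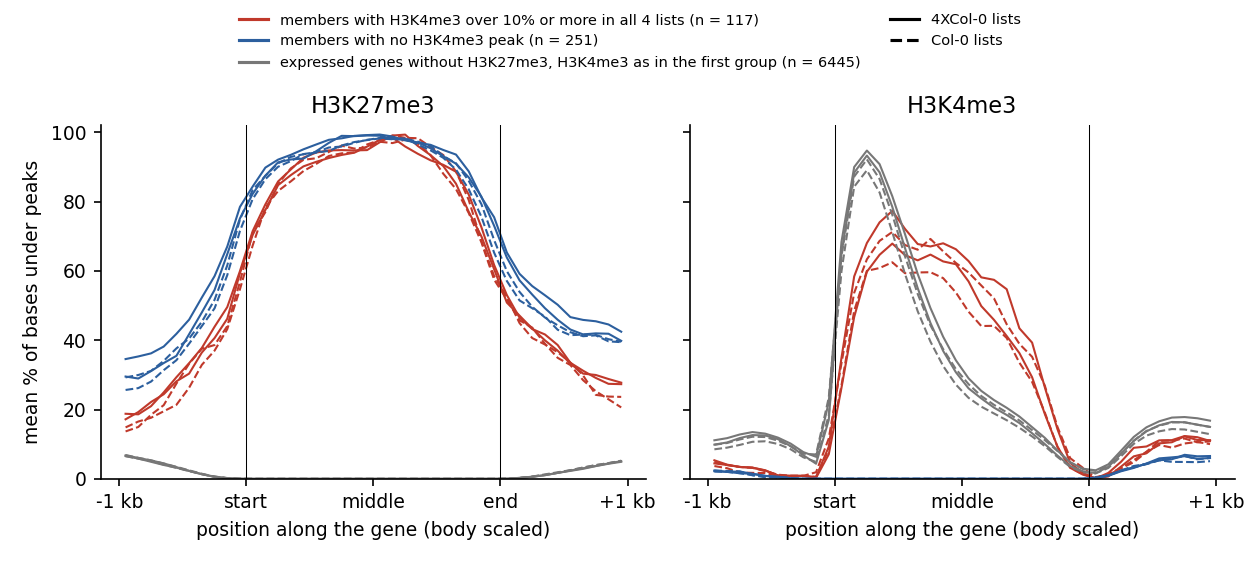
Mean percent of bases under H3K27me3 peaks and under H3K4me3 peaks along the scaled gene body and 1 kb on either side, with 1 line per list, solid for 4XCol-0 and dashed for Col-0. H3K27me3 exceeds 90% at the middle of the body in both classes of the 441 genes, and H3K4me3 in the 117 genes of the first class extends through the body.

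The highest H3K4me3 was on AGP10, a cell wall arabinogalactan protein, with 96.9% and 100% of the body under peaks in 4XCol-0 and 100% and 97.4% in Col-0. Its H3K27me3 was 100% and 91.4% in 4XCol-0 and 90.6% and 92.8% in Col-0, so nearly every base carried both marks. AT1G77200, an AP2-type transcription factor, had 92.9% and 94.2% under H3K4me3 in 4XCol-0 and 100% and 94.7% in Col-0. AT4G17810, a C2H2 zinc finger protein, averaged 90.0%, AT2G03550, an alpha/beta-hydrolase, 86.2%, and AT5G14690, an uncharacterised protein, 86.2%. These 5 genes were short, from 584 to 1048 bases.

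Anti-H3 peaks moved with the H3K4me3 class. At least 1 H3 peak lay on 91.5% of the 117 genes of the first class in 4XCol-0 and on 89.7% in Col-0, and on 52.6% of the 251 genes without H3K4me3 in 4XCol-0 and 47.0% in Col-0. Among expressed genes without H3K27me3 that met the H3K4me3 rule, it was 59.2% in 4XCol-0 and 53.9% in Col-0. Among covered genes under 1 FPKM that met it, the share was 92.3% in 4XCol-0 and 91.4% in Col-0, close to that of the 117 genes. The methods name anti-H3 reads as the control of peak calling. The part of H3 occupancy in the H3K4me3 classes was not tested.

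H3K4me3 on the 441 genes was then compared between the genotypes, the only comparison with replicates that the choice of genes had not used. The mean fold enrichment over the gene body was tested by limma over the 7807 genes with a mean of 1 or more, 2 lists against 2, with Benjamini-Hochberg adjustment. Of these, 4 genes (0.0512%) were higher in 4XCol-0 and 0 (0%) were lower at an adjusted p under 0.05, with 666 at an unadjusted p under 0.05. Of the 74 covered genes that could be tested, 0 passed in either direction by limma, the smallest adjusted p being 0.565 (limma), and 3 higher and 1 lower had an unadjusted p under 0.05. The other settings and block designs tried with limma also called 0 of the covered genes, with between 0 and 14 higher and between 0 and 12 lower at an unadjusted p under 0.05. The filter admitted only genes with enough H3K4me3, so nothing is said here of the 251 genes without a peak.

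AT2G25450 had an enrichment of 1.42 and 1.57 in 4XCol-0, against 0.919 and 0.480 in Col-0. It encodes GSL-OH, an oxygenase that modifies glucosinolate side chains. Its log2 difference was 0.57 ± 0.19 (SE, n = 2 lists each), which did not pass limma's adjusted test (adjusted p = 0.565), and its FPKM was 243 in 4XCol-0 and 207.5 in Col-0. AT4G29020 went the other way, with 1.23 and 1.92 in 4XCol-0, against 2.86 and 2.87 in Col-0, a log2 difference of −0.60 ± 0.21 (SE, n = 2 lists each; adjusted p = 0.565 by limma), while its FPKM was higher in 4XCol-0, at 506 against 374 in Col-0. ASG8, an uncharacterised protein, had 1.55 and 1.69 in 4XCol-0, against 0.907 and 0.698 in Col-0, a log2 difference of 0.54 ± 0.16 (SE, n = 2 lists each; adjusted p = 0.565 by limma). Values of the genotypes did not overlap in these 3 genes, but among all 7807 genes both lists of 4XCol-0 lay above both lists of Col-0 in 12.5% and below them in 29.6%.

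HFR1, a bHLH factor that promotes the response to light by binding and inhibiting PIF factors, was too low in H3K4me3 for that test. H3K4me3 peaks covered 44.4% and 58.2% of its body in 4XCol-0, against 9.64% and 9.78% in Col-0. H3K27me3 covered 73.8% and 62.5% in 4XCol-0, against 87.1% and 86.9% in Col-0. Its FPKM was 118 in 4XCol-0 and 55.9 in Col-0, the third largest difference upwards among the 441 genes. H3K27me3 was used to choose the gene, and its marks were singled out after their values were seen, so these values are a description.

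The FPKM of the 441 genes was on balance lower in 4XCol-0. The median log2 ratio of 4XCol-0 over Col-0, computed on FPKM + 1, was −0.14, against 0.03 over all 8965 expressed genes and 0.04 over those without H3K27me3. A lower value in 4XCol-0 was found for 289 of the 441 genes (65.5%), against 44.9% of all expressed genes. At least 1.5-fold lower were 50 genes (11.3%), where 1.7% of all expressed genes were, and at least 1.5-fold higher were 15 genes (3.40%), where 2.99% were. At least 2-fold lower were 19 genes, where 0.48% of all expressed genes were, and 3 were at least 2-fold higher, where 0.39% were. These columns also chose the genes, so the figures describe the list and test nothing.

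The shift was seen at all levels of expression. The median was −0.09 for genes with 10 to 20 FPKM, −0.12 from 20 to 40, −0.23 from 40 to 100 and −0.19 above 100, against 0.07, 0.07, 0.02 and −0.04 in expressed genes without H3K27me3. It was −0.14 in the 117 genes with H3K4me3 and −0.16 in the 251 without a peak. Of 19 root genes listed after the values were seen, 14 were lower in 4XCol-0 and 5 higher, with a median log2 ratio of −0.25. Lower values were found for 44.9% of all expressed genes and 28.6% of all nuclear genes. The 5 higher root genes were MYB36, CASP5, RSL4, WOX5 and PLT1. The summed level of the 19 was 1977 FPKM in 4XCol-0 and 2369 FPKM in Col-0. BGLU23, the root beta-glucosidase PYK10, made up most of it, with 1792 FPKM in 4XCol-0 and 2127 FPKM in Col-0. The root tip regulators WOX5, PLT1 and PLT2 were all below 1 FPKM. Of the 19 genes, 13 had 1 FPKM or more in both genotypes, and 10 of the 13 were lower. Without the 5 of the 441 genes on that list, the median of the remainder was −0.13. Leaving out so few genes can move a median only slightly, so this value says nothing of root RNA in the remainder. The part of root tissue in the FPKM differences of other genes was not tested.

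**Figure D4:**
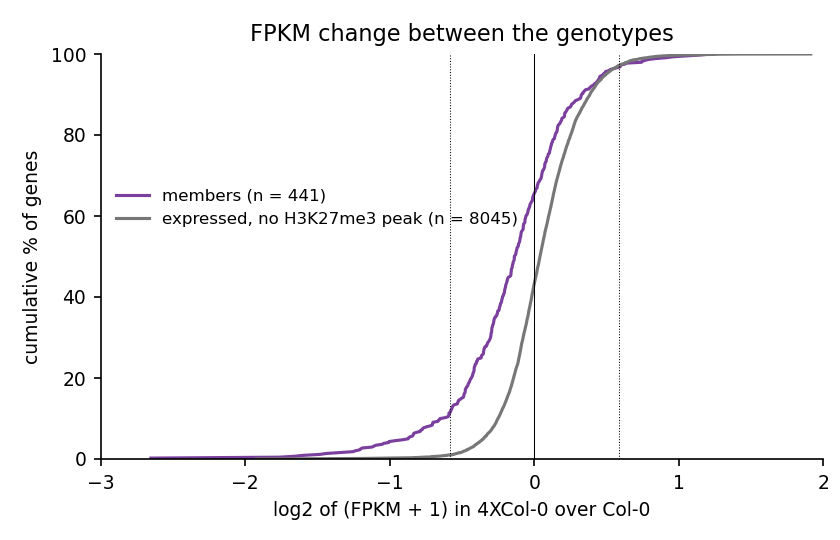
Cumulative percent of genes against the log2 ratio of FPKM + 1 in 4XCol-0 over Col-0, for the 441 expressed covered genes and the 8045 expressed genes without H3K27me3, with dotted lines at 1.5-fold. The curve of the covered genes lies to the left, with 11.3% of them past the lower line.

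The largest difference downwards was that of IPS1. This gene, whose RNA sequesters the microRNA miR399 during phosphate starvation, had 92.9 FPKM in 4XCol-0 and 590 FPKM in Col-0, a log2 ratio of −2.65. PHT1;1, a high-affinity phosphate transporter of the plasma membrane named after its values were seen, had 44.8 FPKM in 4XCol-0 and 105 FPKM in Col-0. Neither held the P1BS element GNATATNC, bound by the phosphate regulator PHR1, in its 250-base window, while 6.35% of the 441 windows and 4.81% of all windows did. Both had 100% of the body under H3K27me3 and no H3K4me3 peak in every list of either genotype. PHT1;1 has close copies, between which reads could have been split. HCHIB, a basic chitinase of the defence response, had 59.0 FPKM in 4XCol-0 and 203 FPKM in Col-0. Its H3K4me3 coverage was 46.4% and 60.5% in 4XCol-0 and 58.6% and 40.6% in Col-0, so the genotypes overlapped, and reads from the overlapping AT3G12502 could not be separated from it.

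Several others among the largest differences downwards act in the cell wall or apoplast, though not all. AT4G12545 and AT4G15160, of the lipid-transfer protein family, had 41.3 and 10.3 FPKM in 4XCol-0 and 133 and 30.5 FPKM in Col-0. AT3G16670, a Pollen Ole e 1 and extensin-like protein, had 15.1 FPKM in 4XCol-0 and 47.7 FPKM in Col-0. EXT3, an extensin that scaffolds the growing wall, had 262 FPKM in 4XCol-0 and 618 FPKM in Col-0. OSM34, an osmotin of the pathogenesis-related class, had 45.5 FPKM in 4XCol-0 and 118 FPKM in Col-0. Outside this theme, the MADS-box factor SEP3 had 10.6 FPKM in 4XCol-0 and 23.0 FPKM in Col-0.

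The largest differences upwards were fewer. AT1G06360, a fatty acid desaturase-like protein, had 55.8 FPKM in 4XCol-0 and 23.4 FPKM in Col-0, and UPI, a protease inhibitor of the potato inhibitor type, 36.1 FPKM in 4XCol-0 and 15.7 FPKM in Col-0. LTL1, a GDSL-type lipase, had 37.4 FPKM in 4XCol-0 and 18.7 FPKM in Col-0. FAR1, here the fatty acyl reductase that makes suberin alcohols, had 98.7 FPKM in 4XCol-0 and 51.9 FPKM in Col-0. IAA1, an auxin-induced repressor of auxin response, had 19.0 FPKM in 4XCol-0 and 10.8 FPKM in Col-0. Differences under 1.5-fold were recorded for both epidermal markers. ATML1, a homeodomain factor of the outer cell layer, had 31.2 FPKM in 4XCol-0 and 25.9 FPKM in Col-0, and its target PDF1 186 FPKM in 4XCol-0 and 132 FPKM in Col-0.

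Of the 441 genes, 37 fell into a family of lipid transfer and wax genes, 29 into cell wall and 23 into peroxidases, and 260 into none of the families listed. Narrower groups were formed from the annotated products after the values were seen, and close copies within a family may share reads. Of 53 expressed lipid-transfer proteins, 19 belonged to the 441 genes. In this group 18 were lower in 4XCol-0 and 10 at least 1.5-fold so, with a median log2 ratio of −0.70, against −0.19 in the other 34 expressed members, of which 26 were lower. AIR1, first found as auxin-induced in root cultures, had 98.3 FPKM in 4XCol-0 and 268 FPKM in Col-0, and AZI1, a protein of systemic immunity, 228 FPKM in 4XCol-0 and 459 FPKM in Col-0. No H3K4me3 peak lay on 15 of the 19.

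Of 35 expressed peroxidases, enzymes that cross-link wall polymers and oxidise phenolics, 22 were among the 441, and 20 of these had no H3K4me3 peak. The expressed peroxidases outside the list were poor in H3K4me3 as well, with 2 of 13 carrying it in every list. In 4XCol-0, 18 of the 22 were lower, with a median of −0.27, and the other 13 expressed peroxidases had a median of −0.39. AT2G38390 had 38.7 FPKM in 4XCol-0 and 93.6 FPKM in Col-0, and its neighbour AT2G38380 77.5 FPKM in 4XCol-0 and 161 FPKM in Col-0. Peroxidases outside the list were lower to a similar degree.

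The major latex and polyketide cyclase-like proteins, small ligand-binding proteins, contributed 14 of 28 expressed members, 13 of them without H3K4me3. Of the 14, 10 were lower in 4XCol-0, with a median log2 ratio of −0.20, whereas the other 14 expressed members had a median of 0.38. The jacalin-related lectins and nitrile specifiers contributed 9 of 14 expressed members, of which 8 were lower and 8 lacked H3K4me3. Their median log2 ratio was −0.15. Of the other 5 expressed members, 2 were lower, with a median of 0.31, and 3 had H3K4me3 in every list. JAL33, a lectin of the ER-body system, had 464 FPKM in 4XCol-0 and 516 FPKM in Col-0. Among arabinogalactan proteins, which are glycosylated wall proteins, 5 of 31 expressed members were on the list and all 5 were lower, with a median of −0.65. Of the other 26 expressed members, 25 were lower as well, with a median of −0.25. H3K4me3 lay on 4 of the 5 in every list.

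The AT-hook proteins, chromatin-associated DNA-binding factors that restrain hypocotyl growth and flowering, had 5 of 8 expressed members on the list. All 5 carried both marks in every list and were lower in 4XCol-0, by a median of −0.31. The other 3 expressed AT-hook genes also had H3K4me3 in every list. Of these 3, 2 were lower, and their median was −0.008. AHL22 had 15.4 FPKM in 4XCol-0 and 19.3 FPKM in Col-0, with H3K4me3 over 66.1% and 87.6% of the body in 4XCol-0 and over 73.5% and 53.2% in Col-0. AHL19 had 15.7 FPKM in 4XCol-0 and 22.2 FPKM in Col-0. Of other regulator families the list held 11 of 155 expressed zinc finger genes, 6 of 32 bHLH, 3 of 27 MYB, 2 of 16 WRKY, 2 of 16 GATA and 2 of 16 YABBY, SBP and GRAS genes. It held 1 each of 46 homeobox, 22 NAC, 21 ERF/AP2 and 7 MADS-box genes.

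Wax and cutin genes showed no common direction. The 3-ketoacyl-CoA synthases, which elongate fatty acids for wax, had 7 of 12 expressed members on the list, and 5 of the 7 were higher in 4XCol-0. KCS6, the main enzyme of stem wax, had 179 FPKM in 4XCol-0 and 236 FPKM in Col-0, with H3K4me3 over 36.2% and 49.8% of the body in 4XCol-0 and over 33.1% and 28.5% in Col-0. KCS10, required for separate epidermal surfaces, had 121 FPKM in 4XCol-0 and 107 FPKM in Col-0. LACS2, an acyl-CoA synthetase of cutin, is among the longest genes of the list and had 11.9 FPKM in 4XCol-0 and 10.5 FPKM in Col-0. The TRAF-like proteins, 6 of 13 expressed members, were higher in 4 of the 6, with a median of 0.18, the same as in the other 7, of which 1 was lower. AT2G32870 had 65.6 FPKM in 4XCol-0 and 37.5 FPKM in Col-0.

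**Figure D5:**
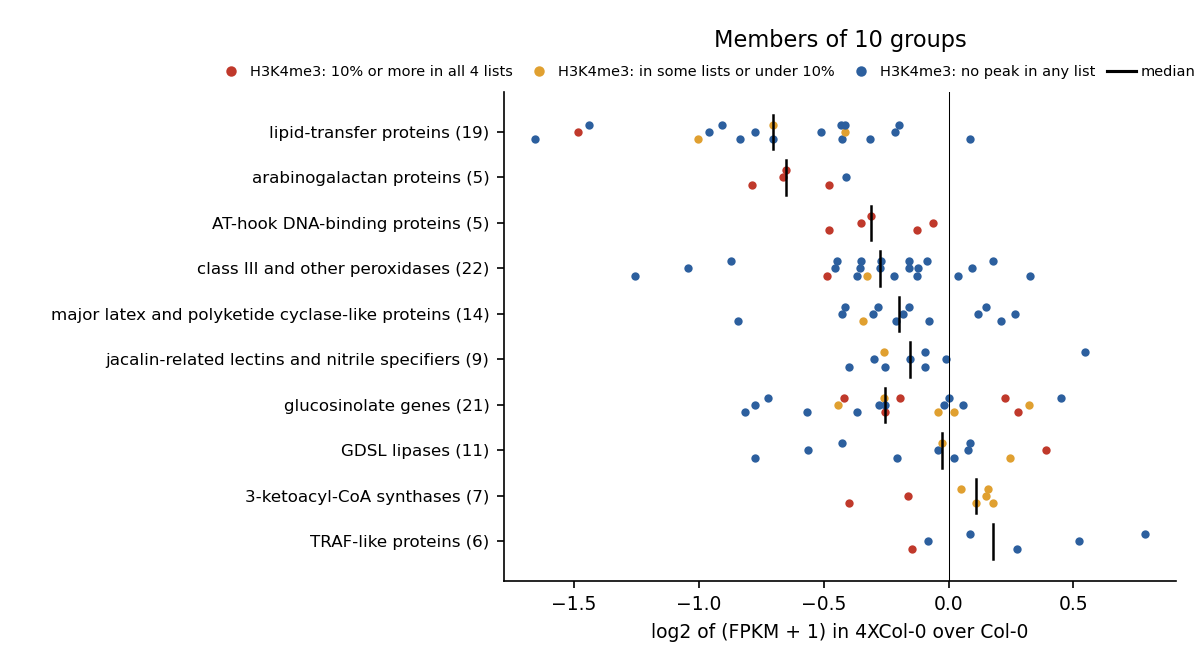
Log2 ratio of FPKM + 1 in 4XCol-0 over Col-0 for the expressed covered genes of 10 groups, with 1 point per gene coloured by its H3K4me3 class and a bar at the median. The lipid-transfer proteins lie farthest below 0 by median, at −0.70, and the TRAF-like proteins lie above 0.

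Glucosinolates are sulphur-rich defence compounds of the cabbage family, cleaved by myrosinases. Of 54 pathway genes, 42 were expressed and 21 of these were among the 441. 11 of the 21 had no H3K4me3 peak, while 16 of the other 21 expressed pathway genes had H3K4me3 in every list. 14 of the 21 were lower in 4XCol-0, with a median log2 ratio of −0.25, against −0.13 in the other 21, of which 16 were lower.

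Among the listed genes, the steps of the pathway differed in H3K4me3. In the aliphatic branch, built from methionine, 7 of the 9 listed genes had no H3K4me3 peak. BCAT4, which starts side chain elongation, had 87.5 FPKM in 4XCol-0 and 155 FPKM in Col-0, though it overlaps IKU2, and MAM1, which adds the carbon units, had 189 FPKM in 4XCol-0 and 187 FPKM in Col-0. In the indolic branch, built from tryptophan, 4 of 7 carried H3K4me3 in every list and none lacked it. Outside the list the 2 branches were similar. H3K4me3 in every list was found on 6 of the other 8 expressed aliphatic genes and on 8 of the other 10 expressed indolic genes. CYP79B2, the first enzyme of the indolic branch, had 29.5 FPKM in 4XCol-0 and 35.4 FPKM in Col-0, with H3K4me3 over 26.7% and 29.6% of the body in 4XCol-0 and 32.0% and 28.0% in Col-0. Among the breakdown genes TGG2 had 245 FPKM in 4XCol-0 and 245 FPKM in Col-0. ESM1, which favours isothiocyanates over nitriles, had 143 FPKM in 4XCol-0 and 246 FPKM in Col-0.

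Of the 39 runs of neighbouring genes, 4 held 3 genes. CYP705A5, CYP708A2 and THAS1 belong to the thalianol cluster, in which THAS1 closes the triterpene ring and the cytochromes P450 oxidise it. They spanned chr5:19434827-19461689, had no H3K4me3 peak, and were all lower in 4XCol-0, THAS1 having 22.9 FPKM in 4XCol-0 and 25.3 FPKM in Col-0. The peroxidases AT5G64100, AT5G64110 and AT5G64120 formed another run without H3K4me3, in which 2 were lower. BGLU33, AT2G32870 and AT2G32880 were all higher. A last run of 3, AT1G70880, AT1G70885 and MLP43, was lower throughout.

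The remaining long genes were AT1G31710, a copper amine oxidase, with 19.2 FPKM in 4XCol-0 and 24.7 FPKM in Col-0, and TLL1, a triacylglycerol lipase-like protein, with 81.6 FPKM in 4XCol-0 and 101 FPKM in Col-0. Both lacked H3K4me3 and had between 60% and 70% of the body under H3K27me3 on average. The aquaporin family of membrane channels contributed 6 of 23 expressed members, all lower in 4XCol-0 by a median of −0.20. Of the other 17 expressed members, 11 were lower, with a median of −0.02. PIP2;4, on the list, had 39.98 FPKM in 4XCol-0 and 54.2 FPKM in Col-0.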

How the data were processed

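Peak lists and a gene expression table of 4XCol-0 and Col-0 seedlings were used as deposited. According to the methods, the authors used STAR (genome build TAIR10) and featureCounts on the RNA-seq reads and deposited FPKM, 1 value per gene and genotype; how the 3 samples were combined, and the depth, are not given in the sources used here. ChIP-seq reads were aligned with BWA and peaks called with Macs2 by the authors, each list labelled as 1 sample. The deposited lists hold each peak's fold enrichment over control and the −log10 q-value. In each genotype 1 H3K4me3 list carries "merge" and 1 "Rep4" in its peak names. Their meaning is not stated; if a merge list pools libraries, the 2 lists are not 2 independent replicates and the standard errors do not measure the spread between them. Moreover, the replicate in the file name of the Col-0 H3K4me3 lists differs from the label, which was followed.

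For each nuclear gene, the percent of its body under peaks was computed from the deposited coordinates, with the length-weighted mean enrichment. 279 chloroplast and mitochondrial genes were left out. Of 33278 loci, 32820 were matched by name to RefSeq TAIR10.1, which gave products, exons and upstream sequence. FPKM ratios used log2(FPKM + 1), which understates differences of low genes. H3K4me3 was tested with limma 3.58.1 in R 4.3.3 on log2(enrichment + 1) with a mean-variance trend, and p-values were Benjamini-Hochberg adjusted over 7807 genes. The test was also run on simulated data. Tables were made with Python 3.11.15 and pandas 2.3.3. The 50 kb Hi-C matrices were not used here, since a bin holds many genes.

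The genes and all gene lists were chosen with earlier results of these data known. Genes named are the 10 with the highest mean FPKM, the 5 largest FPKM differences each way, the 5 longest, the 5 with most and the 5 with least H3K4me3, those on tissue and Polycomb lists, up to 4 per family, and those next to a threshold; PHT1;1, EXT3, OSM34, IAA1, the glucosinolate and cluster genes and the root list were added after their values were seen. Alternatives covered the FPKM and coverage minimums, peak q-values, the promoter, pseudocounts, scaling, normalization, a replicate block and leaving out each list.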

Additional observations from a re-analysis of the deposited data

How the results depend on the processing

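Of 52 alternative values, 30 were counted as unchanged, by a rule that was wide for counts and narrow for medians. The list of 441 genes became 641 with a minimum of 5 FPKM, 550 with 30% coverage and 294 with 80% coverage. It became 311 with 1000 bases before the start included, and these values counted as unchanged. Medians of −0.13 and −0.16 counted as moved from −0.14, although none changed sign. The list held 268 genes with a minimum of 20 FPKM, 259 with H3K27me3 peaks of q-value 1e-05 or less, and 448 to 468 when 1 list was left out. The median log2 FPKM ratio was −0.16 after scaling to the same upper quartile, −0.13 with a minimum of 5 FPKM and −0.16 with a minimum of 20. It was −0.13 without the 5 genes on the root list and −0.13 without genes that overlap another, both chosen after seeing the data. H3K4me3 in all 4 lists was found on 33 genes when 50% of the body was required, and on 117 to 126 without 1 list.

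The count of genes with a higher H3K4me3 enrichment in 4XCol-0, 4 by limma, was 15 after quantile normalization and 0 with a pseudocount of 0.1, with percent coverage or with no filter. It was 8 with the replicate block and 8 with crossed pairing of the replicate numbers, added after seeing the data because the difference of replicate 1 minus replicate 2 in 4XCol-0 and that in Col-0 correlated at −0.17 over 7807 genes. Lower genes were 0, and 2 after quantile normalization, 1 with the replicate block. Leaving out 1 list gave 0 to 17 higher and 0 to 2 lower genes: 11 and 2 without Col-0 replicate 2, 17 and 0 without Col-0 replicate 1, 0 and 0 without 4XCol-0 replicate 2, 7 and 1 without 4XCol-0 replicate 1, the remaining list being assumed to vary like the other genotype. No alternative called a covered gene. Besides a number, lists of the genotypes share the tag merge or Rep4 in their peak names, which the crossed pairing follows. FPKM without replicates or depth, and peak lists without read counts, limit every difference given, since neither sampling error nor biological spread can be computed for FPKM.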
